A study of Homo sapiens with 36 samples.

Results

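The granins and VGF are secreted acidic proteins that fill the dense-core granules of neurons and endocrine cells. The 6 genes followed here, CHGA, CHGB, SCG2, SCG3, SCG5 and VGF, were taken by symbol from the 23146 loci of the authors' tables, and all 6 were found. They were measured in MRC-5, a much used fibroblast line from human fetal lung, while a proneural transcription factor was used to turn the fibroblasts toward neurons. Total RNA was sequenced from 36 libraries, which form 12 groups of 3 libraries, 4 conditions at 3 times.

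GFP cells carried a lentivirus encoding GFP. FD cells had that GFP virus too and were given 2 small molecules. These were forskolin at 10 µM, which switches on adenylyl cyclase and so raises cyclic AMP, and dorsomorphin at 1 µM, which blocks BMP type I receptors as well as AMPK. N cells carried a lentivirus encoding HA-NEUROG2. NFD cells carried the NEUROG2 virus and received both molecules. Harvest times are counted in days from the addition of the molecules (DPT, 0.5, 1 and 2), and the cultures without molecules were harvested at the same times. The labels place the induction medium at 48 hours after infection, so the virus came first and DPT is not the time since infection. For GFP cells, 1 label names a medium with 15% serum and another the neuron induction medium given to the other groups, so a change of medium may be part of each comparison with GFP. The labels do not name the promoter that drives NEUROG2, and they do not say whether the 3 libraries of a group came from separate cultures.

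Granins aggregate with calcium in the trans-Golgi and are packed with peptide hormones into granules, which wait for a signal before they fuse with the cell surface. Several are themselves precursors that prohormone convertases cut into peptides. Such regulated secretion is typical of neurons and endocrine cells, whereas fibroblasts export matrix mainly by the constitutive route. CHGA and CHGB are the classical chromogranins, SCG2 is the precursor of secretoneurin, and SCG3 helps to hold granins and carboxypeptidase E at the granule membrane. SCG5, also called 7B2, is the chaperone of the convertase PCSK2, and VGF is a peptide precursor that was first described as induced by nerve growth factor. Promoters of CHGA and VGF are known for a cyclic AMP response element (CRE), the site of CREB.

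Promoters of 4 members were in the RefSeq table used here (build GRCh38.p14), and those of 3 are shown because they differ in this element. Each is the 250 bases before the transcription start, 5′ to 3′ on the strand of the gene. Capitals mark the CRE core TGACG or its complement CGTCA, which overlap in the full element TGACGTCA. CHGB and SCG2 had no entry.
CHGA promoter, chr14:92922900-92923149, plus strand: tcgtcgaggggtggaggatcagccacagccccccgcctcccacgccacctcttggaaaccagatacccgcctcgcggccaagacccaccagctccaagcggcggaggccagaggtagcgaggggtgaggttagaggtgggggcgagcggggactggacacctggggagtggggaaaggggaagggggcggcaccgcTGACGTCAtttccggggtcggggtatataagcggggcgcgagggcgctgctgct
VGF promoter, chr7:101165570-101165819, minus strand: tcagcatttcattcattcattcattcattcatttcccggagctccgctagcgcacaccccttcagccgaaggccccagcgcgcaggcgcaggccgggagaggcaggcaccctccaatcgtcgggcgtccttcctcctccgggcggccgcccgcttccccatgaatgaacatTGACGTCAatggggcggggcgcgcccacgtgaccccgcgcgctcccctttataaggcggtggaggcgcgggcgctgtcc
SCG5 promoter, chr15:32641460-32641709, plus strand: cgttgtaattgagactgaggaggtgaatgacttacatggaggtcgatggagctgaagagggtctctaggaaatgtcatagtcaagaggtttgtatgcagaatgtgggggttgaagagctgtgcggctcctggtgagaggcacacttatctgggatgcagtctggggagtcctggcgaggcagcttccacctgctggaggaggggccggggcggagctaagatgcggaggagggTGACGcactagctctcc

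The full CRE began 54 bases before the start of CHGA and 79 bases before the start of VGF. Searched on both strands, from 250 bases before to 50 after the start, it was present in 1.85% of the 35116 promoters of the table. SCG5 held 1 such core, which began 17 bases before the start, and SCG3 held 1 that began 4 bases before it. The core was present in 24.6% of promoters. The general E-box CANNTG, the core bound by basic helix-loop-helix factors, occurred in all 4 promoters and in 68.7% of the table. The form CAGATG, bound by proneural factors, occurred in 14.7% of the table and in none of these 4 windows. SCG3 also held TTCAGCACC, the left part of the RE1 element of the repressor REST, from 9 bases after its start. These letters, searched for after the sequence had been seen, were present in 0.376% of promoters. The right part, GGACAG, was added in the same way and was present in 20.5% of promoters. It began 26 bases after the start of SCG3, and its complement began 6 bases before the start of VGF. Matches describe the letters of these windows only.

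**Figure D1:**
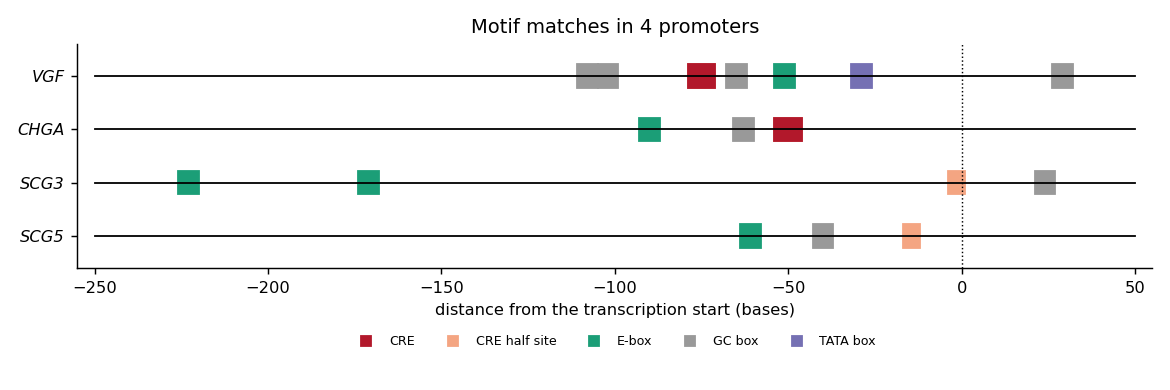
Motif matches in the promoters of VGF, CHGA, SCG3 and SCG5, drawn by distance from the transcription start in bases, with the start at 0. The full CRE lies in VGF and CHGA, at 79 and 54 bases before the start, and SCG3 and SCG5 hold the core TGACG close to it.

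Values are the authors' group FPKM (fragments per kilobase of transcript, scaled to the size of the libraries), 1 value per group of 3 libraries, so no spread per group is given and depth is unknown. The words rose and fell are kept for genes whose comparison with time-matched GFP cells had an authors' q-value at or under 0.05. Those p-values set the difference between 2 groups against the variation estimated between libraries, and that variation may be technical. Values given in rows of 3 are for 0.5, 1 and 2 DPT, in that order. The median deposited log2 fold change of all genes tested lay between -0.04 and 0.04 in the 9 tables. NEUROG2 stood at 15.3 to 36.7 FPKM in GFP cells and at 12.3 to 15.4 FPKM in FD cells, and reached 2616, 2565 and 2641 FPKM in the N groups. In NFD cells it is listed at 0 under a mark for too many fragments, so the tables do not check the NFD label. The 10 fibroblast markers summed to 8024 to 10014 FPKM in GFP cells, none of them at 0. They summed to 5781 to 5931 FPKM in FD cells, 6122 to 6205 in N cells, and 4236, 2407 and 1358 in NFD cells. Such sums can hide opposite moves. In N cells VIM went from 3364 to 1659 FPKM between 0.5 and 2 DPT, and COL3A1 from 916 to 2100 FPKM. In bulk RNA, fewer cells of a type and less RNA per cell cannot be told apart.

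SCG2 (chromosome 2, 224461657 to 224467217, hg19) was the member with the highest level wherever the NEUROG2 virus was used. Its authors' group FPKM was 1.4, 0.951 and 0.491 in GFP cells and 5.17, 6.79 and 5.64 in FD cells. It was 72.6, 55.2 and 77.7 FPKM in N cells and 241, 119 and 77.7 FPKM in NFD cells. SCG2 was thus highest in NFD cells at 0.5 and 1 DPT, and NFD and N cells had the same level at 2 DPT. GFP cells were lowest at every time. Ranked among all 23146 loci, SCG2 stood at place 11751 in GFP cells and at place 393 in NFD cells at 0.5 DPT. In the authors' deposited tables the rise in NFD cells was 7.43, 6.96 and 7.31 on the log2 scale (q = 0.000151 at each time, the lowest q of the tables). The corresponding rises against the same GFP libraries were 5.69, 5.86 and 7.31 in N cells and 1.88, 2.84 and 3.52 in FD cells in the deposited tables.

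CHGB (chromosome 20, 5891973 to 5906005) was higher at each later time in all 4 conditions, with the largest ratios of 2 to 0.5 DPT in N and NFD cells. It was listed at 0.0514, 0.0631 and 0.175 FPKM in GFP cells and at 1.11, 1.42 and 1.47 FPKM in FD cells. In N cells it was at 0.540, 1.52 and 5.12 FPKM, and in NFD cells at 5.63, 12.6 and 41.7 FPKM. NFD cells were highest and GFP cells lowest at every time. FD cells were above N cells at 0.5 DPT, close to them at 1 DPT and below them at 2 DPT, an order that was not tested. In the authors' deposited tables CHGB rose by 6.77, 7.64 and 7.90 in NFD cells, by 3.39, 4.59 and 4.87 in N cells and by 4.43, 4.49 and 3.07 in FD cells (q = 0.000151 for all 9 values). By 2 DPT it stood at place 2071 of the loci in NFD cells, against place 14299 in GFP cells.

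VGF (chromosome 7, 100805789 to 100808852) moved in opposite directions with the molecules and with NEUROG2. It was at 2.70, 1.01 and 0.504 FPKM in GFP cells and higher in FD cells, at 4.21, 2.48 and 1.10 FPKM. N cells had 0.301, 0.184 and 0.0618 FPKM, the lowest at every time, and NFD cells had 0.542, 0.379 and 0.592 FPKM. The level was thus lower at each later time in GFP, FD and N cells, while in NFD cells it was about as high at 2 DPT as at 0.5 DPT. In the authors' deposited tables VGF rose by 0.64, 1.30 and 1.12 in FD cells (q = 0.000151 at each time). The deposited log2 fold changes were -3.17, -2.45 and -3.03 in N cells, which all passed (q = 0.000151, 0.000151 and 0.00131). In NFD cells VGF fell at 0.5 and 1 DPT, with -2.32 and -1.41 in the deposited tables, and was 0.23 at 2 DPT without passing (q = 0.464). The fold change of NFD cells against GFP was 2.55 higher at 2 DPT than at 0.5 DPT on the log2 scale (standard error at most 0.627, adjusted p = 0.000758, approximate test on the authors' p-values, described with NFD against N cells).

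SCG5 (chromosome 15, 32933869 to 32989298) was the highest member in cells without the NEUROG2 virus. GFP cells had 6.98, 9.90 and 12.4 FPKM, and FD cells had 6.55, 10.1 and 13.8 FPKM. N cells had 3.43, 4.97 and 3.92 FPKM and NFD cells 4.04, 4.65 and 4.01 FPKM. Both groups with the NEUROG2 virus were thus below both groups without it at every time. In the authors' deposited tables the log2 fold changes were -1.03, -1.0 and -1.65 in N cells and -0.79, -1.09 and -1.62 in NFD cells, all of which passed (q = 0.000151). Those of FD cells, -0.09, 0.03 and 0.16 in the deposited tables, did not pass (q = 0.615, 0.890 and 0.285).

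SCG3 and CHGA stayed low. For SCG3 (chromosome 15, 51973549 to 52013223) GFP cells had 0.00639, 0 and 0.0152 FPKM and FD cells had 0.0295, 0.0422 and 0.0411 FPKM. It was at 0.0621, 0.141 and 0.427 FPKM in N cells and at 0.0884, 0.307 and 1.22 FPKM in NFD cells, which were the highest group at each time. The authors tested it only in NFD cells at 2 DPT, where the deposited log2 fold change of 6.33 did not pass (q = 0.220). CHGA (chromosome 14, 93389444 to 93401638) was listed at 0 in 6 of the 12 groups and reached at most 0.0728 FPKM, in NFD cells at 2 DPT. It was not tested in any table, so no change is called for it.

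**Figure D2:**
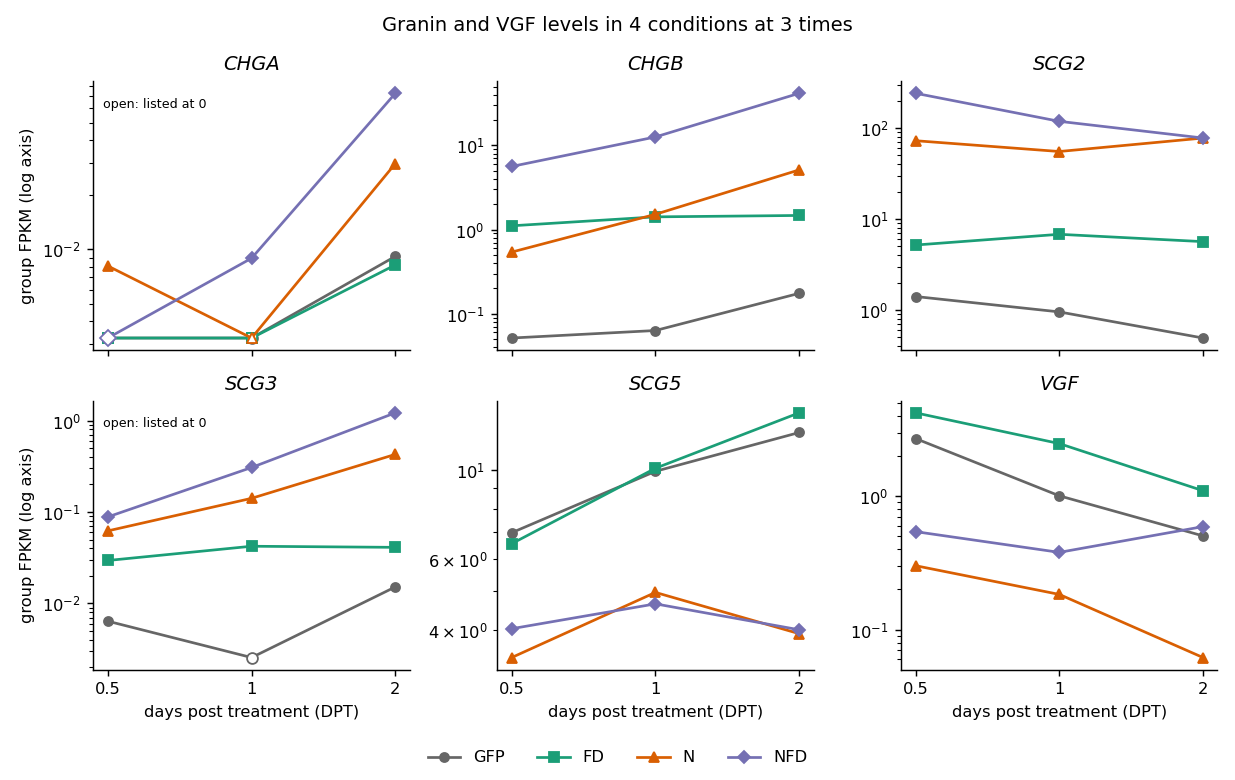
Group FPKM (log axis, a separate range for each gene) of the 6 members against days post treatment, with 1 point for each group of 3 libraries and open points for values listed at 0. Among the conditions at 0.5 DPT, NFD cells have the highest SCG2 and CHGB, at 241 and 5.63 FPKM, and CHGB reaches 41.7 FPKM there at 2 DPT. SCG5 is lower in both NEUROG2 groups, and VGF is lowest in N cells.

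The make-up of the set differed between the conditions. The 6 members summed to 11.1, 11.9 and 13.6 FPKM in GFP cells, of which SCG5 was 62.6%, 83.1% and 91.2%. In N cells they summed to 77.0, 62.1 and 87.3 FPKM, and SCG2 made up 94.4%, 89.0% and 89.0% of it. NFD cells had 252, 137 and 125 FPKM in sum, with a share of SCG2 of 95.9%, 86.8% and 62.0%. CHGB accounted for most of the rest in NFD cells at 2 DPT. In FD cells the sum was 17.1, 20.8 and 22.1 FPKM, and SCG5 was still the highest member.

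Of the 4 members tested in FD cells, 3 rose at each time (CHGB, SCG2 and VGF), where 17.8%, 16% and 16.9% of all genes tested rose. None fell by the authors' Cuffdiff q-value, SCG5 being the member not called, with unadjusted p = 0.522, 0.851 and 0.204, and 18.8%, 22.3% and 21.6% of all genes fell. In N cells 2 of 4 rose and 2 fell at each time, against 26.2%, 25.4% and 27.1% of all genes that rose and 24.3%, 29.3% and 30% that fell. In NFD cells 2 rose at each time, of 4, 4 and 5 tested, where 32.1%, 32.6% and 34.1% of all genes rose. Falls in NFD cells numbered 2, 2 and 1, and 31.3%, 33.2% and 32% of all genes fell. Members were tested only where the authors had enough data, so CHGA and mostly SCG3 are outside these counts.

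**Figure D3:**
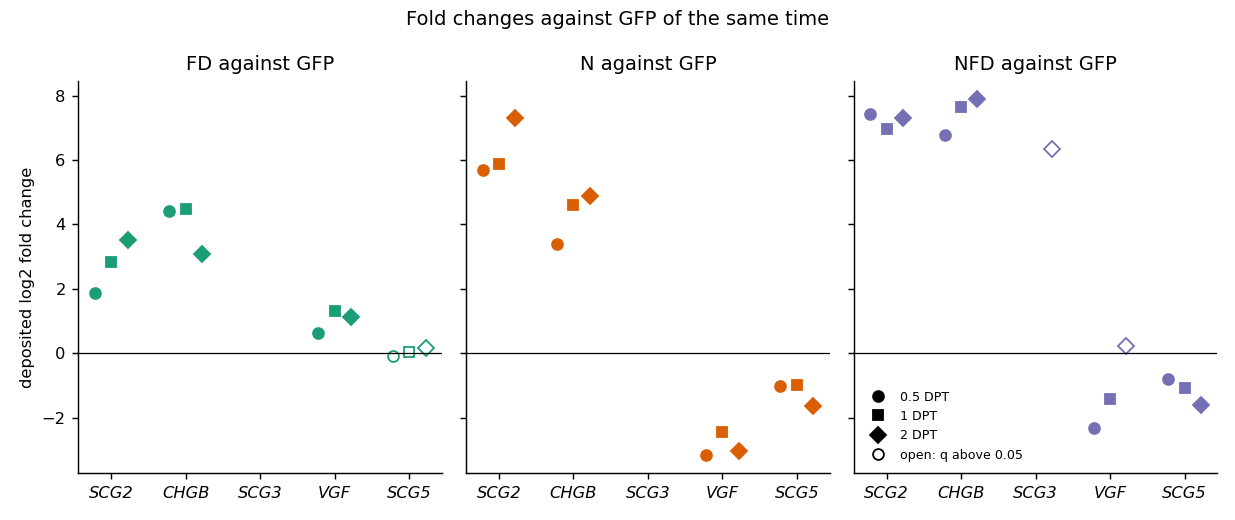
Deposited log2 fold changes of 5 members against GFP of the same time, in FD, N and NFD cells, with marker shapes for 0.5, 1 and 2 DPT and open markers where q is above 0.05; SCG3 was tested only in NFD cells at 2 DPT. SCG2 and CHGB lie above 0 in all 3 conditions, and VGF lies above 0 in FD cells and below 0 in N cells.

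What the molecules added to NEUROG2 was read from NFD against N cells, which the authors' tables do not test. An approximate test was used, in which each deposited fold change was given the standard error that its p-value implies. At the lowest p-value of the tables, 5e-05, this is an upper bound that grows with the fold change, so the test has little power for strongly induced genes. As a yardstick chosen after the data were seen, the error implied for genes at like levels is given beside it. Those genes had like levels in GFP cells and in the condition, so strongly induced genes are not among them.

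CHGB was 10.4, 8.31 and 8.14 times as high in NFD as in N cells, a log2 difference of 3.38, 3.06 and 3.03. None of these passed with standard errors of at most 1.87, 2.20 and 2.29 (approximate test on the authors' p-values, adjusted p = 0.227, 0.346 and 0.380). Genes at like levels had a standard error with a median of 0.219, 0.160 and 0.126 and a 90th percentile of 0.630, 0.332 and 0.241. SCG2 was higher in NFD cells by 1.73 and 1.10 on the log2 scale at 0.5 and 1 DPT, and the difference was 0.0007 at 2 DPT, none of which passed (standard errors at most 2.31, 2.24 and 2.55). At like levels the median standard error was 0.115 at each of the 3 times, and the 90th percentile was 0.295, 0.236 and 0.235. SCG5 differed by 0.24, -0.09 and 0.03 without passing, with standard errors of at most 0.319, 0.364 and 0.571. Its median error at like levels was 0.141, 0.136 and 0.141, with a 90th percentile of 0.273, 0.262 and 0.291. VGF was higher in NFD cells by 0.85 and 1.05 without passing and by 3.26 at 2 DPT, which passed (standard error 0.907, approximate test on the authors' p-values, adjusted p = 0.00412). The Cuffdiff p-values behind that error, 0.0005 in N and 0.368 in NFD cells, lay above the floor, so it is an estimate and no upper bound. The VGF difference at 2 DPT set 0.592 against 0.0618 FPKM, and both levels are under 1 FPKM. At like levels the VGF error had a median of 0.302 and a 90th percentile of 0.935 at 0.5 DPT. Too few genes lay at like levels to give it at 1 and 2 DPT. The count was 0, 0 and 1 of 4 members higher in NFD cells, where 5.49%, 9.46% and 9.61% of all genes tested were called higher. No member was called lower by this test, and 6.92%, 9.1% and 9.05% of all genes were. At an unadjusted p under 0.05 the approximate test gave 0, 0 and 1 members, with a lowest value of 0.0703 for CHGB at 0.5 DPT and 0.134 for VGF at 1 DPT.

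What NEUROG2 added in cells that had the molecules was read from NFD against FD cells by the same test. SCG2 was 46.7 times as high in NFD cells at 0.5 DPT, a log2 difference of 5.55 that passed (standard error at most 1.89, approximate test on the authors' p-values, adjusted p = 0.0138). At 1 and 2 DPT the SCG2 differences of 4.13 and 3.79 did not pass (approximate test on the authors' p-values, adjusted p = 0.0563 and 0.108). CHGB differences were 2.34, 3.16 and 4.82, of which that at 2 DPT passed (approximate test on the authors' p-values, adjusted p = 0.0470). SCG5 differed by -0.70, -1.12 and -1.78, lower in NFD cells at each time (approximate test on the authors' p-values, adjusted p = 0.0147, 0.00126 and 0.000221). VGF was lower in NFD cells at each time too, by log2 differences of -2.96, -2.71 and -0.89 (approximate test on the authors' p-values, adjusted p = 2.08e-05, 1.50e-06 and 0.0422). The counts were 1, 0 and 1 members higher and 2, 2 and 2 lower, where 16.6%, 21.2% and 21.9% of all genes were called higher and 19.9%, 23.5% and 23.3% lower.

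**Figure D4:**
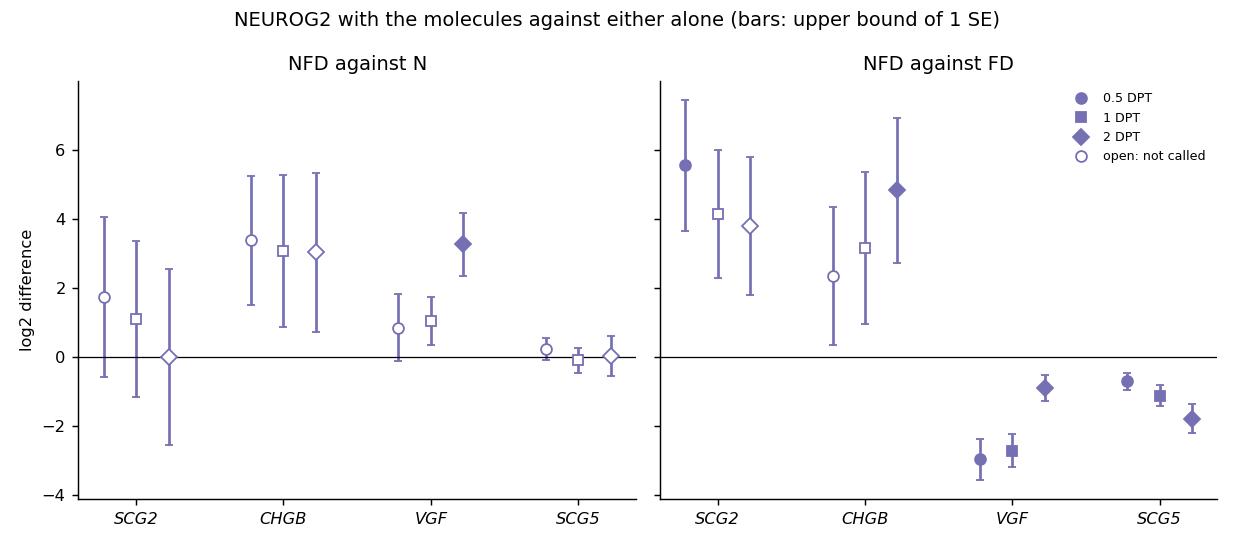
Log2 differences of 4 members in NFD cells against N cells and against FD cells, with open markers where the approximate test did not pass. Bars are 1 standard error in either direction, an upper bound except for VGF against N cells at 2 DPT. CHGB lies 3.03 to 3.38 above N cells at all 3 times, SCG2 lies at 0.0007 against N cells at 2 DPT, and SCG5 lies below FD cells and close to N cells.

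The NFD fold change was also set against the sum of the N and FD fold changes on the log2 scale, which share the GFP libraries. For CHGB the deposited fold change in NFD cells was 6.77, 7.64 and 7.90 and the sum was 7.82, 9.08 and 7.95. For SCG2 it was 7.43, 6.96 and 7.31 against sums of 7.57, 8.70 and 10.8. SCG2 in NFD cells was therefore 3.52 under the sum at 2 DPT, which did not pass (standard error at most 2.69, approximate test on the authors' p-values, adjusted p = 0.414). VGF at 2 DPT was 2.14 over the sum of -1.90, which did not pass either (standard error at most 0.949, approximate test on the authors' p-values, adjusted p = 0.109). SCG5 lay -0.13 to 0.33 from the sum (standard error at most 0.349, 0.388 and 0.585). No member passed in either direction, where 1.78%, 7.9% and 9.07% of all genes tested were called above the sum and 1.57%, 6.23% and 7.3% below it. At an unadjusted p under 0.05 the approximate test gave 0, 0 and 1 members, the last being VGF at 0.0244.

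Levels followed time differently from member to member. CHGB was 9.49 times as high at 2 DPT as at 0.5 DPT in N cells and 7.41 times in NFD cells, against 1.33 times in FD and 3.40 times in GFP cells. The same ratio of levels was 1.07 for SCG2 in N cells and 0.322 in NFD cells. For SCG3 it was 6.88 in N and 13.8 in NFD cells, both from under 0.1 FPKM. Levels have no spread, so time was tested on the fold changes against GFP only. Of 4 members, 0 were called different between 0.5 and 2 DPT in FD cells and 0 in N cells by the approximate test, and 0 had an unadjusted p under 0.05. In FD cells the differences were -1.36 for CHGB and 1.64 for SCG2 (standard errors at most 1.33 and 0.985). In N cells they were 1.48 and 1.61 (at most 1.46 and 2.28), so the test could not decide on changes of this size. Of all genes tested, 5.08% were called higher and 5.89% lower at 2 DPT in FD cells, and 5.04% and 7.62% in N cells. In NFD cells 1 member, VGF, was higher and 0 were lower, where 10.6% and 12% of all genes were.

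The other genes of the granule did not move as 1 block. Among 13 genes of prohormone processing, 11 were tested in N cells at 2 DPT, of which 2 rose (18.2%) and 4 fell (36.4%), and 12 in NFD cells, of which 6 rose (50%) and 2 fell (16.7%). Of all genes tested, 27.1% rose and 30% fell in N cells and 34.1% and 32% in NFD cells, so the N counts lie near the share of all genes. Of the 10 tested in FD cells 0 rose, where 16.9% of all genes did, and 1 fell, namely CPZ, a carboxypeptidase; none rose at an unadjusted Cuffdiff p under 0.05 either. CPE, the carboxypeptidase that trims peptide ends, rose in the authors' deposited tables by 2.55, 2.66 and 2.85 in N cells and by 2.41, 2.83 and 3.23 in NFD cells. Its level at 2 DPT was 165 FPKM in NFD cells and 17.6 FPKM in GFP cells. PCSK6, a convertase of the constitutive route, had log2 fold changes of 8.16 in N and 7.89 in NFD cells at 2 DPT in the deposited tables, the largest of the list, which did not pass (q = 0.0776 for both); at 1 DPT it rose in both. PCSK1, a convertase of granules, was listed at 0 in GFP cells and at 0.569 FPKM in NFD cells at 2 DPT, where it rose. PCSK2, the client of SCG5, was at 0.00753 FPKM in GFP cells, 0.982 in FD cells, 0.0591 in N cells and 0.227 in NFD cells at 2 DPT, and its only tested fold change, in FD cells at 2 DPT, did not pass (q = 0.334). PCSK1N, a granin-like inhibitor of PCSK1, reached 4.12 FPKM in NFD cells at 2 DPT, with a deposited log2 fold change of 6.56 that did not pass (q = 0.344).

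Of 24 genes of the granule membrane and of exocytosis, 15 were tested in FD cells at 2 DPT (8 rose and 4 fell), 17 in N cells (6 rose and 8 fell) and 17 in NFD cells (7 rose and 7 fell). In FD cells these are 53.3% and 26.7%, against 16.9% and 21.6% of all genes tested. The shares in N cells, 35.3% and 47.1%, compare with 27.1% and 30% of all genes, and those in NFD cells, 41.2% in each direction, with 34.1% and 32%. SYT7, a calcium sensor of granule fusion, rose in NFD cells by 7.89, 9.68 and 10.41 in the authors' deposited tables, to 66.2 FPKM at 2 DPT. SYT7 also rose by 5.79, 7.06 and 8.24 in N cells, and by 4.36 in FD cells at 2 DPT. CADPS, which primes granules for fusion, rose by 3.39, 5.06 and 6.33 in N cells in the deposited tables. In NFD cells CADPS rose by 5.26 and 6.84 at 1 and 2 DPT and was not tested at 0.5 DPT. PTPRN, a granule membrane protein also called IA-2, rose by 1.54, 1.99 and 3.0 in FD cells, had log2 fold changes of -1.22, -1.42 and -1.48 in N cells that passed, and rose by 0.63, 0.58 and 0.89 in NFD cells in the deposited tables. SNAP25, a SNARE protein of exocytosis, rose by 1.57, 1.96 and 3.38 in FD cells and by 0.67, 1.06 and 1.25 in NFD cells in the deposited tables. In N cells SNAP25 rose by 0.65 and 1.48 at 1 and 2 DPT. RAB3B, a small GTPase of secretory vesicles, fell in all 3 conditions, with -1.55, -2.17 and -2.44 in FD, N and NFD cells at 2 DPT in the deposited tables. SLC18A2, the vesicular monoamine transporter, was at 0.0106 FPKM in GFP cells and 16.8 FPKM in NFD cells at 2 DPT, a deposited log2 fold change of 10.63 that did not pass (q = 0.312).

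Of the 12 genes found of granule biogenesis and sorting, 1, 1 and 3 rose and 1, 4 and 4 fell in FD, N and NFD cells at 2 DPT, of 10, 10 and 11 tested. The shares that fell, 10%, 40% and 36.4%, compare with 21.6%, 30% and 32% of all genes tested, and those that rose, 10%, 10% and 27.3%, with 16.9%, 27.1% and 34.1%. BAIAP3, which acts in dense-core granule maturation, rose in NFD cells by 3.93, 5.60 and 4.46 in the authors' deposited tables. The next largest fold changes were those of TBC1D5 and AP1S2 in NFD cells, -1.20 and -1.0, and of PICK1 in N cells, -0.95, which all fell in the deposited tables.

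The 15 genes of constitutive secretion were all tested, and 2, 4 and 6 rose and 1, 1 and 2 fell at 2 DPT. The shares that rose, 13.3%, 26.7% and 40%, lie near those of all genes tested, 16.9%, 27.1% and 34.1%. The shares that fell, 6.67%, 6.67% and 13.3%, were below those of all genes tested, 21.6%, 30% and 32%. SEC61B, of the translocation channel of the endoplasmic reticulum, rose in NFD cells by 0.91, 1.21 and 1.44 in the authors' deposited tables. At 2 DPT SEC24A rose by 0.97 in N cells, TMED10 by 0.61 in FD cells and SEC13 by 0.51 in NFD cells in the deposited tables. Their median deposited log2 fold changes of 0.05, 0.17 and 0.21 compare with -0.01, -0.01 and 0.04 for all genes tested.

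**Figure D5:**
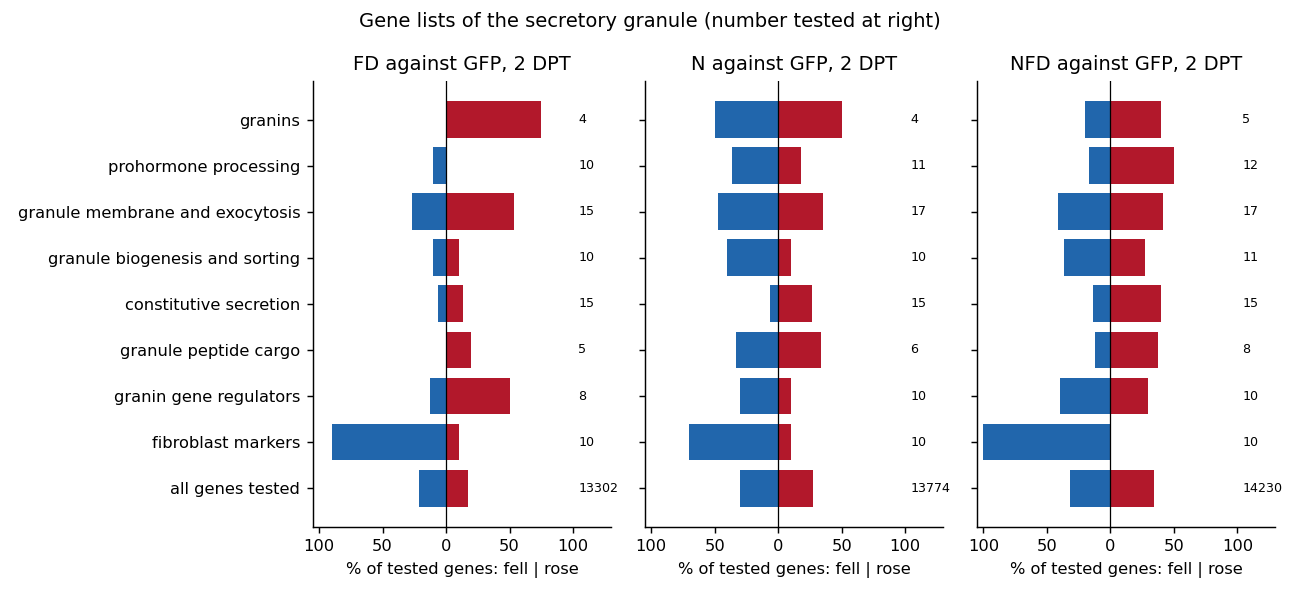
Percentage of tested genes that rose (right of 0) or fell (left of 0) at 2 DPT in 8 gene lists and among all genes tested, with the number tested printed at the right of each bar. The granin bar rests on 4 or 5 genes, and the fibroblast markers fell in 9 of 10, 7 of 10 and 10 of 10 cases in FD, N and NFD cells.

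Among 22 peptide precursors that granules carry, GAL, the galanin precursor, rose in the authors' deposited tables by 3.62, 3.80 and 3.57 in N cells and 3.20, 4.37 and 5.05 in NFD cells. At 2 DPT, 1, 2 and 3 of the 5, 6 and 8 tested precursors rose and 0, 2 and 1 fell in FD, N and NFD cells. The shares that rose were 20%, 33.3% and 37.5%, against 16.9%, 27.1% and 34.1% of all genes tested. Those that fell were 0%, 33.3% and 12.5%, against 21.6%, 30% and 32%. BDNF, a neurotrophin sorted to granules, rose by 0.99 in FD cells at 2 DPT and had log2 fold changes of -1.92 and -3.21 in N and NFD cells that passed in the deposited tables. CCK, the cholecystokinin precursor, was at 0.0716, 2.58, 2.72 and 16.3 FPKM in GFP, FD, N and NFD cells at 2 DPT, and none of its fold changes passed. PENK and NPY, precursors of enkephalins and of neuropeptide Y, were at 0.629 and 1.46 FPKM in NFD cells at 2 DPT and did not pass either (q = 0.313 and 0.312).

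Regulators of granin genes were followed beside them. REST, the repressor of neuronal genes, was at 19.0 FPKM in GFP cells and 13.2 FPKM in NFD cells at 2 DPT, a deposited log2 fold change of -0.52 that passed. It was 0.03 in FD cells and 0.15 in N cells without passing in the deposited tables. INSM1, a zinc finger protein needed for neuroendocrine differentiation, rose in N and NFD cells at 2 DPT, to 6.71 and 19.0 FPKM, with GFP listed at 0. NEUROD1, a proneural factor, rose in N and NFD cells at 1 DPT, and at 2 DPT it was at 0.0142 FPKM in GFP cells and 11.7 FPKM in NFD cells without passing (q = 0.312). CRTC3, a coactivator of CREB, rose by 0.76 in FD cells at 2 DPT, and ATF1, a relative of CREB, had a log2 fold change of -0.78 in NFD cells that passed in the deposited tables. CREM, another relative, rose in the deposited tables by 1.20, 1.18 and 1.45 in FD cells and 1.59, 1.36 and 1.12 in NFD cells. Of the 15 regulators, 4, 1 and 3 rose and 1, 3 and 4 fell at 2 DPT, of 8, 10 and 10 tested. The shares that rose were 50%, 10% and 30%, against 16.9%, 27.1% and 34.1% of all genes, and those that fell were 12.5%, 30% and 40%, against 21.6%, 30% and 32%.

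Markers of cell types that store granules were followed as well. The 10 neuronal markers summed to 1.02 to 1.11 FPKM in GFP cells and 1.08 to 3.93 in FD cells, and to 2.99 to 5.75 in N cells and 3.44 to 10.4 in NFD cells. At 2 DPT, 1, 3 and 3 of the 3, 4 and 6 tested rose in FD, N and NFD cells, and none fell. These shares that rose, 33.3%, 75% and 50%, compare with 16.9%, 27.1% and 34.1% of all genes tested. NEFL, a neurofilament subunit, was at 0.0199 FPKM in GFP cells and rose to 1.36 FPKM in N and 3.62 FPKM in NFD cells at 2 DPT. GAP43, a growth cone protein, was at 0.121 FPKM in GFP cells at 2 DPT and rose to 0.827, 1.36 and 2.40 FPKM in FD, N and NFD cells. NEFM reached 1.41 FPKM in NFD cells and RBFOX3 1.14 FPKM in N cells at 2 DPT without passing (q = 0.304 and 0.278). MAP2, a microtubule protein of dendrites, rose in NFD cells by 1.52, 0.53 and 0.59 in the authors' deposited tables. DCX, a microtubule protein of young neurons, was at most 0.0738 FPKM. The 10 neuroendocrine and endocrine markers summed to 0.277 to 0.365 FPKM in GFP cells, 0.187 to 0.230 in FD cells, 1.08 to 1.52 in N cells and 1.20 to 3.23 in NFD cells. Of these, 0, 1 and 1 were tested in FD, N and NFD cells at 2 DPT, and 0 passed by the authors' Cuffdiff q-value or at an unadjusted p under 0.05. The tested gene was PRL, the prolactin gene, at 0.0473, 1.0 and 2.23 FPKM in GFP, N and NFD cells (q = 0.283 for both). INS was listed at 0 in all 12 groups, and TH, the first enzyme of catecholamine synthesis, was at most 0.0639 FPKM. The largest falls among the fibroblast markers at 2 DPT were in NFD cells, with log2 fold changes of -5.21 for DCN, -3.74 for VIM, -3.66 for FBN1 and -3.50 for LUM in the authors' deposited tables. COL3A1 went the other way in N cells, where it rose by 0.92, 1.25 and 0.95, and 1 of the 10 fibroblast markers rose in FD cells at 2 DPT. The part of any cells that store granules, and of the changes in the fibroblast markers, in the granin values was not tested.

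Over the 12 groups, log2(FPKM + 1) of CHGB and SCG3 had a Pearson correlation of 0.893 and that of CHGB and SCG2 of 0.720, given as descriptions of groups that share times and viruses. SCG2 and SCG5 had a correlation of -0.848. Among 7867 genes that reached 1 FPKM in a group and varied by at least 1 on this scale, the most like SCG2 were MRPS30 (r = 0.981), YAF2, ANKS1A and LRRC8B. The most like CHGB were PPAPDC3 (r = 0.973), GABARAPL2, NKD2, POLN and FBXL19-AS1. SCG5 was most like PROS1 (r = 0.986), REV3L, FAIM2, ASAP3 and OLFML2A. VGF was most like PLEKHN1 (r = 0.968), CBR1, FAM131C, FAM189B and LOC344887. With Spearman's correlation 0, 0, 3 and 1 of the 5 genes were again among the closest 5 of CHGB, SCG2, SCG5 and VGF.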

How the data were processed

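RNA was measured in 36 libraries of MRC-5 cells, made with a stranded total RNA kit and read as single ends of 50 bases, per the labels' protocols. The build GRCh37 and the tools TopHat (1.4.1) and Cufflinks (2.1.0) are listed, without their roles, in the submitters' processing notes. The deposited files are 9 Cuffdiff tables, each setting 1 condition against GFP at 1 time, with the authors' FPKM per group of 3 libraries, log2 fold change, p-value and q-value per locus. They hold no value per library, so no spread within a group, depth, interval or count test could be computed. Each table tested 12961 to 14230 genes.

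A gene was called at a deposited q-value at or under 0.05. For comparisons that the tables do not test (NFD against N, against FD and against the sum of both, and 2 against 0.5 DPT), the standard error of each fold change was taken as its size divided by the z value of its deposited p-value. At the floor of 5e-05 this is an upper bound. Differences were tested against the normal distribution, with Benjamini-Hochberg adjustment over all genes tested, and the script was tested on simulated data. The comparisons share GFP libraries, which was not modelled. The error of genes at like levels was taken from the FD, N and NFD comparisons with GFP of that time, pooled. It used genes whose levels in GFP cells and in the condition were both within 2 times the member's level. The errors found for the 2 levels compared were averaged as variances.

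Likeness is Pearson's correlation of log2(FPKM + 1) over the 12 groups, and the 5 closest genes are named, except 1 that is not reported here. The members, the 10 gene lists (140 genes, 137 found) and the rules for naming genes were chosen with earlier results of these data known. From each list the up to 4 genes with the largest fold changes at 2 DPT are named. The rule also covers the 48 list genes called in 1 direction at all 3 times in a condition, of which only some are named. PCSK1, REST, INSM1, DCX, TH and INS lie outside that rule and were chosen after their values were seen. Promoters come from RefSeq, GRCh38.p14, and gene positions from the tables (hg19). Other thresholds, pseudocounts, filters and a centring of fold changes were tried.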

Additional observations from a re-analysis of the deposited data

Results flagged for a closer look

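VGF in NFD cells was the 1 member whose fold change against GFP was called different between times. The log2 fold change of the authors' deposited tables was -2.32 at 0.5 DPT and 0.23 at 2 DPT, a difference of 2.55 (standard error at most 0.627, approximate test on the authors' p-values, adjusted p = 0.000758). Of all genes tested in NFD cells, 10.6% had a higher fold change at 2 DPT by this test and 12% a lower one. The VGF level of GFP cells itself went from 2.70 to 0.504 FPKM between these times, and that of NFD cells from 0.542 to 0.592 FPKM.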

How the results depend on the processing

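The members' calls were recomputed with other thresholds and level filters, their fold changes against GFP with other pseudocounts and a centring, and the likeness with another pseudocount and Spearman's correlation. None of the members' calls or fold changes reversed. Counts of the other lists, marker sums, ratios of levels and motif shares were not recomputed. With at least 1 FPKM required in the higher group, 1 member rose in N cells at 0.5 DPT and 1 fell at 2 DPT, each against 2. With at least a 2-fold change, 2 members in place of 3 rose in FD cells at 0.5 DPT, without VGF, and 1 member in place of 2 fell in N cells at 1 DPT, in NFD cells at 0.5 DPT, and in NFD against FD cells at 0.5 and 2 DPT. At an adjusted p of 0.01 or less, NFD against FD cells gave 0 members higher and 1 lower at both 0.5 and 2 DPT. VGF in NFD against N cells at 2 DPT drops out where the highest group must reach 1 FPKM, leaving 0 members. Of the 5 genes most like each member, pseudocount 0.1 and Spearman's correlation kept 0 and 0 for CHGB, 2 and 0 for SCG2, 4 and 3 for SCG5, and 2 and 1 for VGF. The cause was not tested. Single values of members stayed within the implied error in 86 cases and moved in 25, of which 20 were with pseudocount 1 and 5 with pseudocount 0.1. Of the 86, 37 were the centring, which shifts a value by at most 0.043. The implied error is often an upper bound, so staying within it does not show a stable value. CHGB in NFD cells at 0.5 DPT stayed within it at 6.77 as deposited and 5.24 with pseudocount 0.1 (standard error at most 1.67).

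No paired analysis was possible because the tables give 1 value per group and none per library. For the same reason leaving out single libraries was not run. The standard errors of NFD against N cells are upper bounds, so a difference not called does not show equal levels. The same limit holds for the other approximate tests wherever a p-value was at its floor.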
